A study of Mus musculus with 4 samples.

Results

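Genes of the bone morphogenetic protein (BMP) pathway were followed in mouse embryonic stem cells depleted of Chd4, an ATPase that moves nucleosomes as part of the NuRD complex, which also removes acetyl groups from histones. The members were the ligand gene Bmp4, the receptor gene Bmpr1a, the signal-transducing Smad1 and Smad5, the inhibitory Smad6 and Smad7, and the target genes Id1, Id2 and Id3. They were chosen by name, with earlier results of these data known. All probe sets that the platform annotation assigned to 1 of these 9 genes alone were taken, which gave 9 of 18193 such genes and 21 of the 45101 probe sets on the array. No probe set was shared between a member and another gene.

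RNA was hybridised to 4 Affymetrix mouse expression arrays. The Chd4 knockdown group (n = 2 arrays) was the inducible RNAi line Chd4i-1, made in J1 embryonic stem cells, after 3 days with 5 ng/ml doxycycline, and the control group (n = 2) was the same line without doxycycline. Both groups carried the RNAi construct and were cultured on a gelatin coat, with fetal serum and the cytokine LIF (leukaemia inhibitory factor). Duplicates within a group are described in the series as biological. A single RNAi line was used, so doxycycline, the RNAi itself and the loss of Chd4 cannot be told apart. Chd4 fell at each of its 3 probe sets, to between 48.5% and 65.0% of control (limma, adjusted p = 0.000244 to 0.00638). The 12 embryonic stem cell markers all lay above the median signal (76.0) on every array, and their signals summed to 131264 and 128838 in knockdown, against 128838 and 131007 in control cells. Of these Klf2, Dppa5a and Utf1 were called higher, and Klf4 and Esrrb lower, to 84.1% and 81.8% of control (adjusted p = 0.0106 and 0.00722). The near-equal sums therefore hide calls in both directions. Over all genes tested, 10.3% were called higher and 7.79% lower.

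BMP ligands bind pairs of type I and type II receptors, which phosphorylate Smad1, Smad5 and Smad9; these join Smad4 and enter the nucleus. The Id genes are direct targets. Their proteins bind E proteins and other helix-loop-helix factors and keep them from DNA. In mouse embryonic stem cells BMP, supplied by serum or made by the cells, acts with LIF to hold off neural differentiation, and Id proteins are known as its main effectors there. Smad6 and Smad7 are induced by the pathway and damp it.

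Id1, Id2 and Id3 rose in Chd4 knockdown cells while the ligand gene Bmp4 and the inhibitory Smad7 fell. The Id3 call ended with any 1 array left out, and Id4, the remaining Id gene, was called lower. The largest member differences in either direction were those of Id2, 1.97-fold higher, and Smad7, 1.91-fold lower, each at 1 of the gene's probe sets. Smad1 and Smad5 did not pass the test at any probe set, and Bmpr1a passed at 1 of 5 tested. Smad6 had signals 1.69-fold above control that missed the threshold. Of the 20 member probe sets bright enough to test, 4 were called higher and 4 lower at an adjusted p under 0.05, where 7.46% and 6.77% of all 27022 probe sets tested were called (14.2% in either direction). Groups did not overlap at 14 of the 20, against 55.9% of all probe sets tested. At their brightest probe sets 3 of the 9 genes were called higher and 2 lower, against 10.3% and 7.79% of 12615 genes (18.1% in either direction). The median log2 difference was 0.13 over those 9 and 0.014 over all genes tested. Every difference is log2 signal in Chd4 knockdown minus control. All of these calls need the variance model to allow for signal. Without an intensity trend limma called 0 of the 27022 probe sets. In that fit, 5 and 4 member probe sets were higher and lower at an unadjusted p under 0.05, as were 2893 and 2935 of all 27022.

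**Figure D1:**
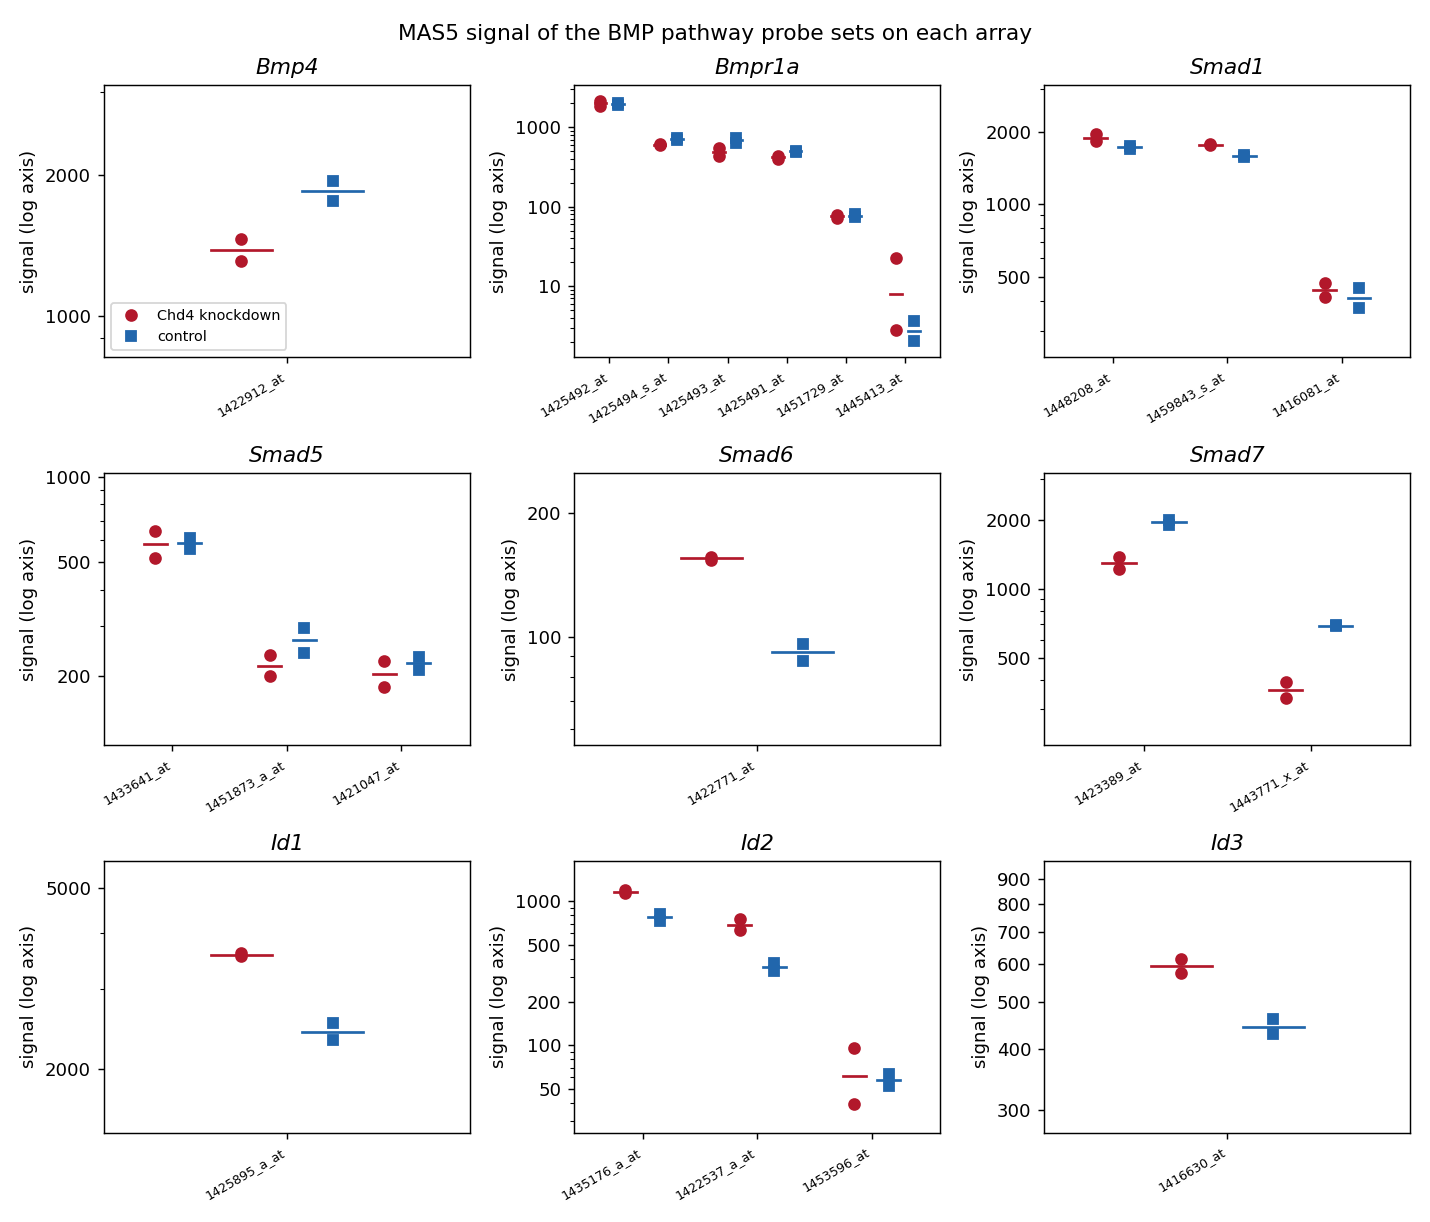
MAS5 signal (log axis) of each of the 21 probe sets on each array, with Chd4 knockdown (red circles) left of control (blue squares); a bar is the mean of the log2 values (n = 2 arrays a group). The knockdown points lie above the control points for Id1, Id3, Smad6 and the brighter pair of Id2 probe sets, and below them for Bmp4 and Smad7.

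The ligand gene Bmp4 had signals of 1456 and 1310 on the knockdown arrays, against 1937 and 1760 on the control arrays. Both knockdown arrays lay below both controls. Bmp4 fell to 74.8% of control (log2 difference -0.42 ± 0.087 SE, limma adjusted p = 0.00876). The call ended without control replicate 1 (-0.35, adjusted p = 0.0580).

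Bmpr1a encodes a type I receptor for Bmp2 and Bmp4. Its 6 probe sets did not move alike, although the array annotation gives the same source sequence for 5 of them. The brightest, 1425492_at, had signals of 2129 and 1876 on the knockdown arrays, against 1897 and 2003 on the control arrays. These groups overlapped, and the 95% interval of the ratio ran from 0.904 to 1.16 (log2 difference 0.036 ± 0.083, adjusted p = 0.828). Probe set 1425493_at had signals of 551 and 438 on the knockdown arrays, against 731 and 640 on the control arrays, and fell to 71.8% of control (-0.48 ± 0.14, adjusted p = 0.0392). That call was lost without knockdown replicate 2 (-0.31, adjusted p = 0.177) or control replicate 1 (-0.38, adjusted p = 0.199). The knockdown arrays also lay below the controls at 1425494_s_at and 1425491_at, at 84.7% and 83.9% of control (adjusted p = 0.167 and 0.214). Probe set 1451729_at lay near the array median, with 71.5 and 79.5 in knockdown, against 74.3 and 80.1 in control cells (adjusted p = 0.962). The last, 1445413_at, was too dim to test: its signals were 22.9 and 2.83 in knockdown, against 2.02 and 3.65 in control cells. A direction for the receptor transcript therefore rests on which probe set is read.

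Smad1 and Smad5 encode the receptor-regulated Smads that carry the BMP signal. The brightest Smad1 probe set, 1448208_at, had signals of 1819 and 1948 in knockdown cells, against 1696 and 1743 in control cells. The knockdown arrays lay above the controls there, but by little (log2 difference 0.13 ± 0.077, 95% interval -0.037 to 0.30, adjusted p = 0.299). The other Smad1 probe sets gave 0.15 and 0.12 (adjusted p = 0.228 and 0.664), so all 3 were slightly above 0 and none was called. For Smad5 the brightest probe set, 1433641_at, had 645 and 519 in knockdown, against 610 and 558 in control cells. The knockdown arrays spanned the controls, with a 95% interval of the ratio from 0.812 to 1.21 (adjusted p = 0.968). Its other probe sets, 1451873_a_at and 1421047_at, were at 81.4% and 91.7% of control (adjusted p = 0.336 and 0.735).

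The inhibitory Smads stood on opposite sides of control. Smad7 blocks type I receptors for both BMP and activin or TGF-beta. At 1423389_at it had signals of 1223 and 1379 in knockdown cells, against 1905 and 2002 in control cells. At 1443771_x_at, a probe set whose suffix marks possible cross-hybridisation, the signals were 334 and 395 in knockdown, against 699 and 687 in control cells. The groups were clearly apart at both probe sets. Smad7 fell to 66.5% and 52.4% of control (log2 difference -0.59 ± 0.086 and -0.93 ± 0.13, adjusted p = 0.00113 and 0.000796), and both calls held with any 1 array left out.

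Smad6, which acts mainly on the BMP branch, had signals of 154 and 156 in knockdown cells, against 87.7 and 96.1 in control cells. Its single probe set lay close above the array median in control cells, and the knockdown values were both higher. The log2 difference was 0.75 ± 0.25 (95% interval 0.20 to 1.31), and it missed the threshold (adjusted p = 0.0700, unadjusted p = 0.0118). No alternative setting in which it was tested brought it under 0.05. The difference between Smad6 and Smad7 was not itself tested.

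**Figure D2:**
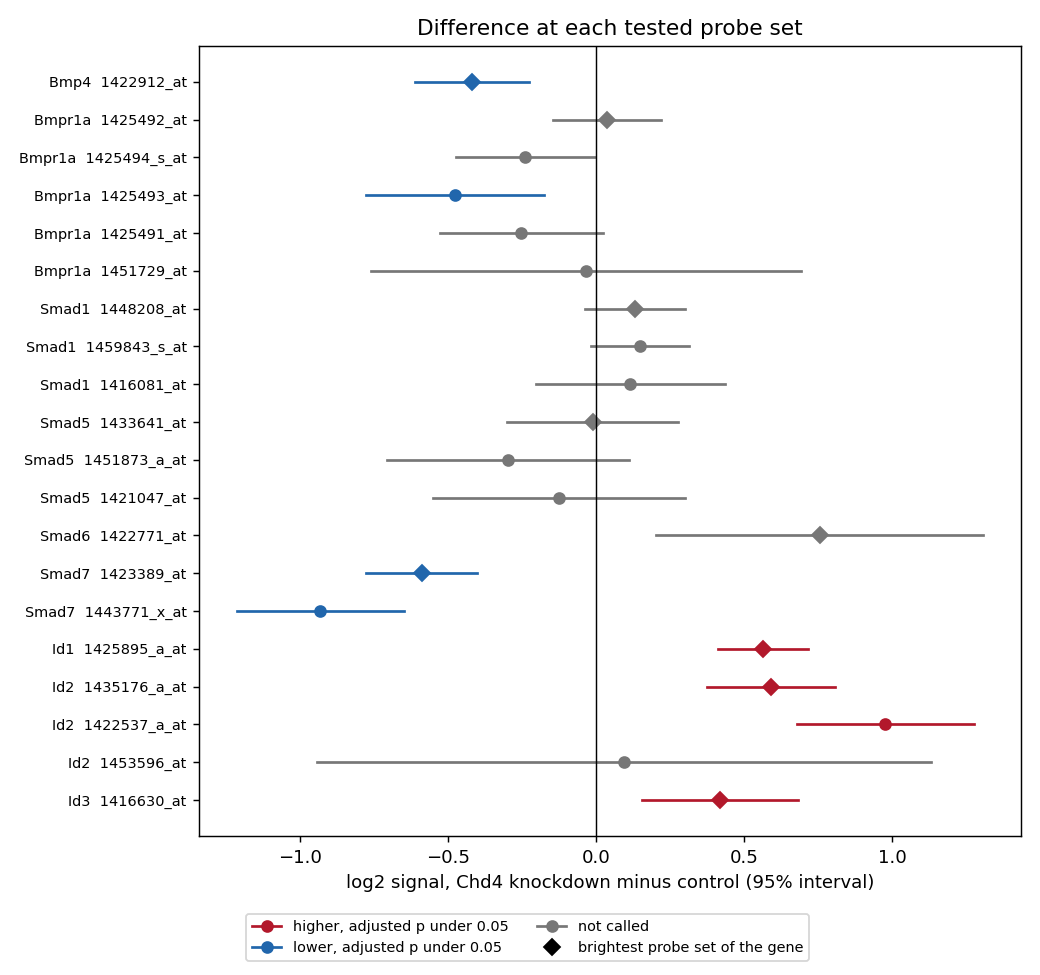
Log2 signal in Chd4 knockdown minus control (horizontal axis) for the 20 tested member probe sets, with 95% intervals from limma; diamonds mark the brightest probe set of a gene. Red intervals (Id1, Id3 and Id2 at 2 probe sets) lie to the right of 0, and blue ones (Bmp4, both Smad7 probe sets and Bmpr1a at 1 of 5) to the left.

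Id1, Id2 and Id3 were each higher in knockdown cells. Id1 had signals of 3600 and 3556 on the knockdown arrays, against 2528 and 2316 on the control arrays. The knockdown replicates differed by less than the controls did, and both lay above them. Id1 rose 1.48-fold (log2 difference 0.56 ± 0.069, adjusted p = 0.000362). The call held with any 1 array left out (0.50 to 0.63).

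Id2 was measured by 3 probe sets, of which 2 were well above the array median. At 1435176_a_at the signals were 1139 and 1195 in knockdown, against 819 and 733 in control cells. At 1422537_a_at they were 628 and 751 in knockdown, against 328 and 371 in control cells. The groups did not overlap at either. Id2 rose 1.51-fold and 1.97-fold (0.59 ± 0.098 and 0.98 ± 0.14, adjusted p = 0.00246 and 0.000861), and both calls held with any 1 array left out. The third, 1453596_at, had 96.6 and 39.5 in knockdown, against 63.7 and 52.7 in control cells. Those knockdown values lay on either side of the controls, and the 95% interval of the ratio, 0.520 to 2.19, includes the changes seen at the other probe sets.

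Id3 had signals of 614 and 576 in knockdown cells, against 462 and 429 in control cells. Its groups were also apart, and it rose 1.34-fold (0.42 ± 0.12, adjusted p = 0.0396). The Id3 call lay near the threshold and ended with any 1 array left out: without knockdown replicate 1 or 2 (adjusted p = 0.142 and 0.0581) and without control replicate 1 or 2 (0.0751 and 0.176), at log2 differences of 0.36 to 0.47.

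**Figure D3:**
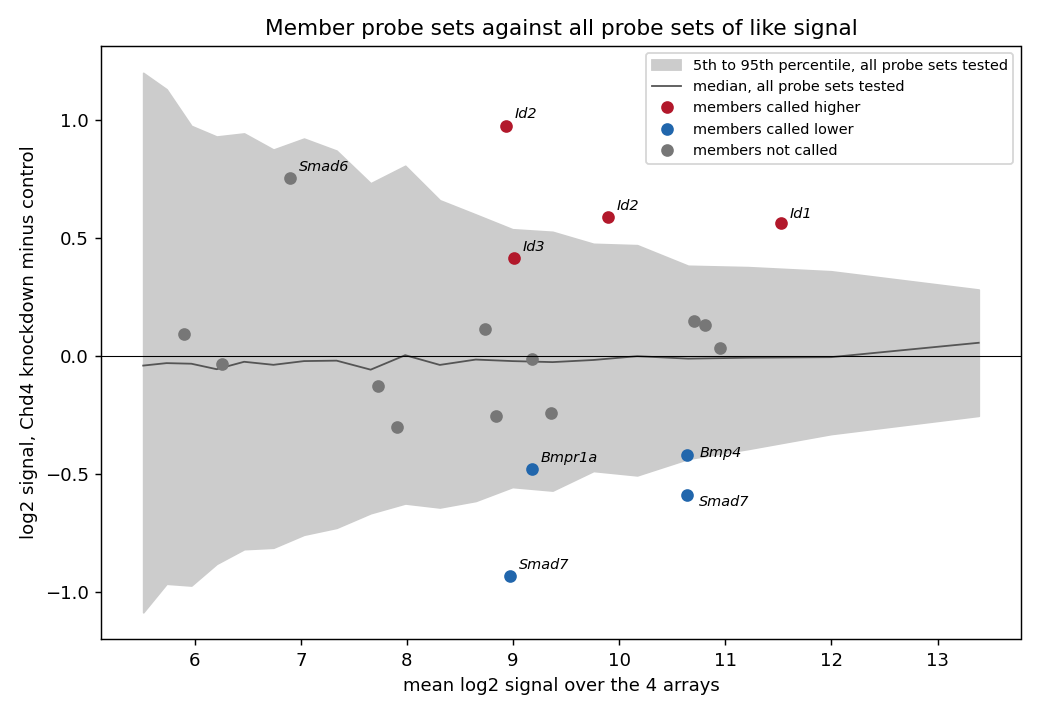
Log2 signal in Chd4 knockdown minus control (vertical axis) against the mean log2 signal (horizontal axis) for the 20 member probe sets, over the band that holds the middle 90 percent of all 27022 probe sets tested at like signal. Id1, 2 Id2 probe sets and both Smad7 probe sets lie outside the band. The called probe sets of Bmp4, Id3 and Bmpr1a lie inside it, as does Smad6, at 0.75.

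Start-site sequences are shown for Id2, Id3 and Smad6, so that the letters they hold can be compared. These genes lay above control and have 1 annotated window each. Smad1 also lay above control at its brightest probe set, without being called, and has 1 window, which is not shown. RefSeq promoter windows (GRCm38.p6, 250 bases before to 50 after a start) were matched for 7 of the 9 genes: Bmp4, Bmpr1a, Id2, Id3, Smad1, Smad5 and Smad6. Letters known for Smad binding were searched on both strands. They were the BMP-responsive GGCGCC, the short Smad element GTCT, and its palindrome GTCTAGAC, which contains the short element on each strand. The windows below run from 250 bases before to 30 after the start, and capitals mark these letters.
Id2: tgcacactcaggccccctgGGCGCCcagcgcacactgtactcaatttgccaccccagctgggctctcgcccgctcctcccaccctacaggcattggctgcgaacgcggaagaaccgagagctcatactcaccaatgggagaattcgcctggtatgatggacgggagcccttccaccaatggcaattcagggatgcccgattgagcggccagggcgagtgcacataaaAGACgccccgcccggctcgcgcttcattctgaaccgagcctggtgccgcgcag
Id3: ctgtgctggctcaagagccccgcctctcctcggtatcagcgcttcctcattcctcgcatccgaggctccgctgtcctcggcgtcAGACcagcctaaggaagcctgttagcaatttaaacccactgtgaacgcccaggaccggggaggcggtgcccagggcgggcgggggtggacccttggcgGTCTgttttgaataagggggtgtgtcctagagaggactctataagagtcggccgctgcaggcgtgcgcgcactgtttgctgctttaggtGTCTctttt
Smad6: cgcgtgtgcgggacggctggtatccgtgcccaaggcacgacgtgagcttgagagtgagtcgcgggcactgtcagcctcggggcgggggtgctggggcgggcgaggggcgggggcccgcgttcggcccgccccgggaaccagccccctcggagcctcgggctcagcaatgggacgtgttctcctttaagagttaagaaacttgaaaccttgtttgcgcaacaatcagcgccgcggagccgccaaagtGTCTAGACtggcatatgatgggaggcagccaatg
The stretches are chr12:25096063-25096342 (minus strand), chr4:136143572-136143851 (plus strand) and chr9:64022030-64022309 (minus strand). The Smad6 window holds GTCTAGAC across the annotated start, which 0.213% of all 32851 windows hold anywhere in their 300 bases. The Id2 window holds GGCGCC with its first base 231 bases before the start. Of all windows, 11.9% hold GGCGCC anywhere in their 300 bases. GGCGCC contains the letters CG, which the Id2 window holds 21 times, against a median of 7 over all windows. That share is therefore not a background of like windows. GTCT or its complement is in 88% of windows and so says little. The Smad1 window, which is not shown, held none of the letters searched. Of the other members, the windows of Bmpr1a and of 2 of the 3 Smad5 starts also held GGCGCC, and those genes were not called at their brightest probe sets. Those 2 Smad5 windows overlap and hold the same site. A match describes letters only, and binding was not measured.

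The rest of the pathway was read from 6 lists of other genes, 86 in all. Of these, 81 were on the array and 56 were bright enough to test at their brightest probe set. Of the 56, 4 were called higher and 9 lower, against 10.3% and 7.79% of all genes tested. At an unadjusted p under 0.05 in the same limma fit, 8 of the 56 were higher and 11 lower. At that cut 3911 of all 27022 probe sets were higher and 3735 lower, which is the background for the unadjusted counts of each list. Their median log2 difference was 0.039, against 0.014 over all genes. Calls of 6 of these 13 genes held with any 1 array left out, those of Tob1, Zfp423, Gata2, Nedd4l, Fstl1 and Tcf4.

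Of 6 other ligand genes tested, limma called 0, with 1 higher and 1 lower at an unadjusted p under 0.05 (median log2 difference -0.055). Gdf3, a TGF-beta family ligand of pluripotent cells, had 1316 and 1575 in knockdown, against 1780 and 1594 in control cells (adjusted p = 0.164). Bmp7 had 176 and 175 in knockdown, against 122 and 136 in control cells (adjusted p = 0.219). Both had groups that did not overlap, in opposite directions. Bmp2 was below the filter.

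Among 8 tested receptors and co-receptors (median 0.15), 1 was called lower and 0 higher by limma, the same counts as at an unadjusted p under 0.05. Acvr1, another type I receptor of the BMP branch, had 179 and 171 in knockdown, against 248 and 299 in control cells, and fell to 64.2% of control (adjusted p = 0.0424). That call ended with any 1 array left out (adjusted p = 0.0626 to 0.271). The type II receptor gene Bmpr2 had 1676 and 1384 in knockdown, against 1290 and 1473 in control cells, which overlapped (adjusted p = 0.422).

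Extracellular antagonists gave 2 falls and 0 rises among 8 tested by limma (median 0.21), with 1 higher at an unadjusted p under 0.05. Fstl1, which encodes a secreted follistatin-like glycoprotein, had 1062 and 1012 in knockdown, against 1404 and 1436 in control cells, and fell to 73.0% of control (adjusted p = 0.00485). Fst, the activin and BMP antagonist follistatin, had 56.1 and 42.3 in knockdown, against 113 and 115 in control cells. Its knockdown signals lie under the array median; it was called lower (adjusted p = 0.0355), and with signals floored at the median it fell by at least 0.58 on the log2 scale (adjusted p = 0.0369). The call ended without knockdown replicate 2 (0.0845), control replicate 1 (0.140) or control replicate 2 (0.152). Nog, which encodes the BMP antagonist noggin, was listed at no more than 5.84 on any array.

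The other Smads and intracellular regulators gave 3 rises and 3 falls among 22 tested (median 0.040). Tob1, an antiproliferative protein gene whose product represses BMP Smads, had the largest difference. Its signals were 2032 and 2087 in knockdown, against 3808 and 4011 in control cells, and it fell to 52.7% of control (-0.92 ± 0.067, adjusted p = 9.1e-06). Nedd4l, a ubiquitin ligase gene, had 781 and 689 in knockdown, against 444 and 426 in control cells, and rose 1.69-fold (adjusted p = 0.00184). Both of these proteins are known to restrain Smads, and their transcripts moved in opposite directions.

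Smad3, of the activin and Nodal branch, fell to 74.3% of control (signals of 439 and 409 in knockdown, against 542 and 600 in control cells; adjusted p = 0.0415). Ski, which encodes a Smad corepressor, fell to 75.3% of control (adjusted p = 0.0265). Map3k7, the TAK1 kinase gene, rose 1.35-fold (adjusted p = 0.0356), and the deubiquitinase gene Usp15 rose 1.19-fold (adjusted p = 0.0267), each at its brightest probe set. Of 4 other tested probe sets, 3 had the same sign for Map3k7 and 2 for Usp15. With the mean over a gene's probe sets Ski kept its call (-0.408, limma adjusted p = 0.0308). Map3k7 (0.24, 0.391), Usp15 (0.0622, 0.85) and Smad3 (-0.505, 0.321) did not. The calls of Smad3 and Usp15 ended with any 1 array left out (adjusted p = 0.0542 to 0.229 and 0.0559 to 0.114). Ski lost its call without knockdown replicate 2 (0.0938) or either control (0.0562 and 0.142), and Map3k7 without either knockdown array (0.0815 and 0.0620) or control replicate 2 (0.244). Smad4, the partner of all receptor-regulated Smads, had 4668 and 4274 in knockdown, against 3824 and 3982 in control cells, and was not called (0.19 ± 0.065, adjusted p = 0.0716). Smad2 was not called either (0.051 ± 0.088, adjusted p = 0.761), and Smad9 was below the filter, with 45.4 and 46.7 in knockdown, against 38.3 and 22.3 in control cells.

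Of 9 other BMP targets tested, 3 were called lower and 0 higher by limma (median -0.28; 4 lower and 1 higher at an unadjusted p under 0.05). Gata2, a transcription factor gene of blood and trophoblast, had 115 and 78.3 in knockdown, against 243 and 265 in control cells, and fell 2.68-fold (-1.42 ± 0.25, adjusted p = 0.00309). Zfp423, listed with the targets although its product is known as a partner of BMP Smads, had 384 and 362 in knockdown, against 674 and 732 in control cells, and fell 1.88-fold (adjusted p = 0.000595). Id4 had 154 and 130 in knockdown, against 214 and 314 in control cells. It fell to 54.5% of control (-0.88 ± 0.23, adjusted p = 0.0266), opposite in sign to its relatives, and the call ended without knockdown replicate 2 (0.0638) or control replicate 2 (0.239). Dusp9, a phosphatase gene that BMP induces in mouse embryonic stem cells, had 1065 and 975 in knockdown, against 1090 and 1103 in control cells, and was not called (adjusted p = 0.500).

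Of the E-protein genes, whose products the Id proteins bind, Tcf4 rose 1.29-fold, with 2144 and 2140 in knockdown, against 1629 and 1683 in control cells (adjusted p = 0.00635). Only 2 of its 5 other tested probe sets had the same sign. Tcf3, which encodes E2A, had 1055 and 1028 in knockdown, against 1142 and 1153 in control cells, groups that were apart but by too little to pass (adjusted p = 0.329). Tcf12 did not pass (adjusted p = 0.362).

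**Figure D4:**
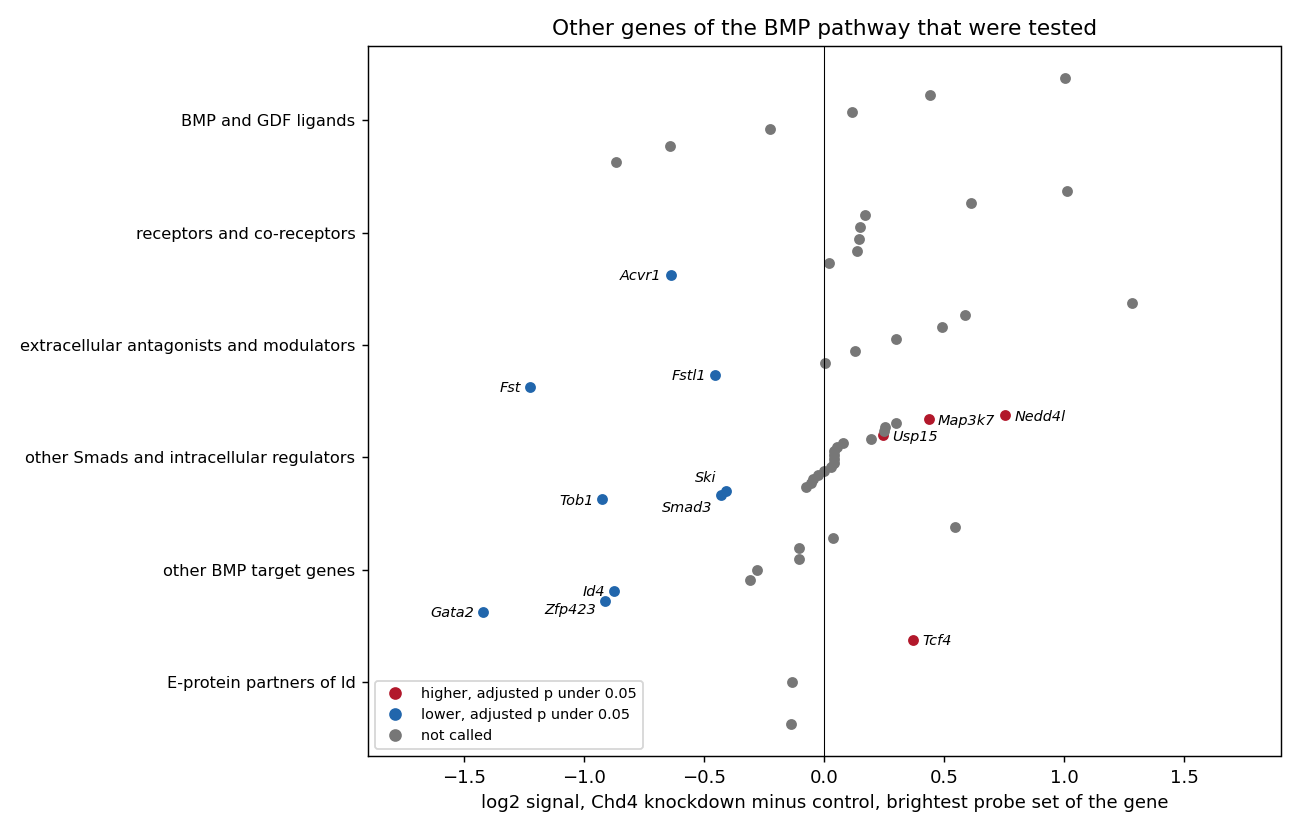
Log2 signal in Chd4 knockdown minus control (horizontal axis) for the 56 tested genes of 6 pathway lists (rows), at the brightest probe set of each gene. The 9 genes called lower (blue) reach -1.42 for Gata2 and the 4 called higher (red) reach 0.75 for Nedd4l, and the 6 ligand genes are all grey.

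Marker lists of other cell types were read on the same arrays. The 9 trophectoderm genes summed to a signal of 5427 and 5711 on the knockdown arrays, against 2808 and 2788 on the control arrays. Of 6 tested, Krt7, Krt18 and Tfap2c were called higher. Over all genes tested 10.3% were called higher and 7.79% lower, which is the background for each marker list here. Krt8, Eomes and Hand1 were not called (limma adjusted p = 0.426, 0.592 and 0.867), and the groups of Eomes and Hand1 overlapped. Tfap2c made up most of the knockdown sums, with 2947 and 3200 in knockdown, against 1229 and 1115 in control cells. Cdx2, Elf5 and Gata3 lay below the array median on every array. The 10 fibroblast genes summed to 832 and 728 in knockdown, against 353 and 508 in control cells. Of 2 tested, Thy1 was called higher, and 8 of the 10 lay below the median on every array. Thy1 made up most of the knockdown sums, with 601 and 547 in knockdown, against 176 and 200 in control cells. At no other gene of this list did both knockdown arrays lie above both controls, and at Postn and Lum they lay below. The 7 mesoderm genes on the array summed to 344 and 392 in knockdown, against 324 and 176 in control cells. Of these 5 lay below the median throughout and 3 were bright enough to test, with 0 calls by limma, also at an unadjusted p under 0.05. The 8 primitive endoderm genes summed to 761 and 677 in knockdown, against 759 and 749.8 in control cells. Of 6 tested, 1 was called lower. The 6 neural ectoderm genes on the array summed to 1725 and 1784 in knockdown, against 1668 and 1632 in control cells. Of 3 tested, 1 was called higher, Tubb3. It made up most of that sum, with 1464 and 1539 in knockdown, against 1276 and 1161 in control cells. Sox1, under the filter, lay the other way, with 21.3 and 5.40 in knockdown, against 129 and 183 in control cells. Pax6 also lay below control but was not called (limma adjusted p = 0.424), and the groups of Nes, Pax3 and Zic1 overlapped. The part of these markers in the Id, Bmp4 and Smad differences was not tested, and in bulk RNA more cells of a type and more RNA per cell cannot be told apart.

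The genes whose signals over the 4 arrays ran closest to each called member were found by Euclidean distance between mean-centred log2 values, among 12614 other genes. Hexdc and Fbxo9 were nearest to Id1 (distances of 0.023 and 0.028), and Hexdc and Alox5ap to Id2. For Id3 they were Pcbd2 and S100a16, for Bmp4 Tor3a and Prpf4b, and for Smad7 Galm and Egln1. Over 4 arrays in 2 groups, any gene with a group difference of like size comes near.

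**Figure D5:**
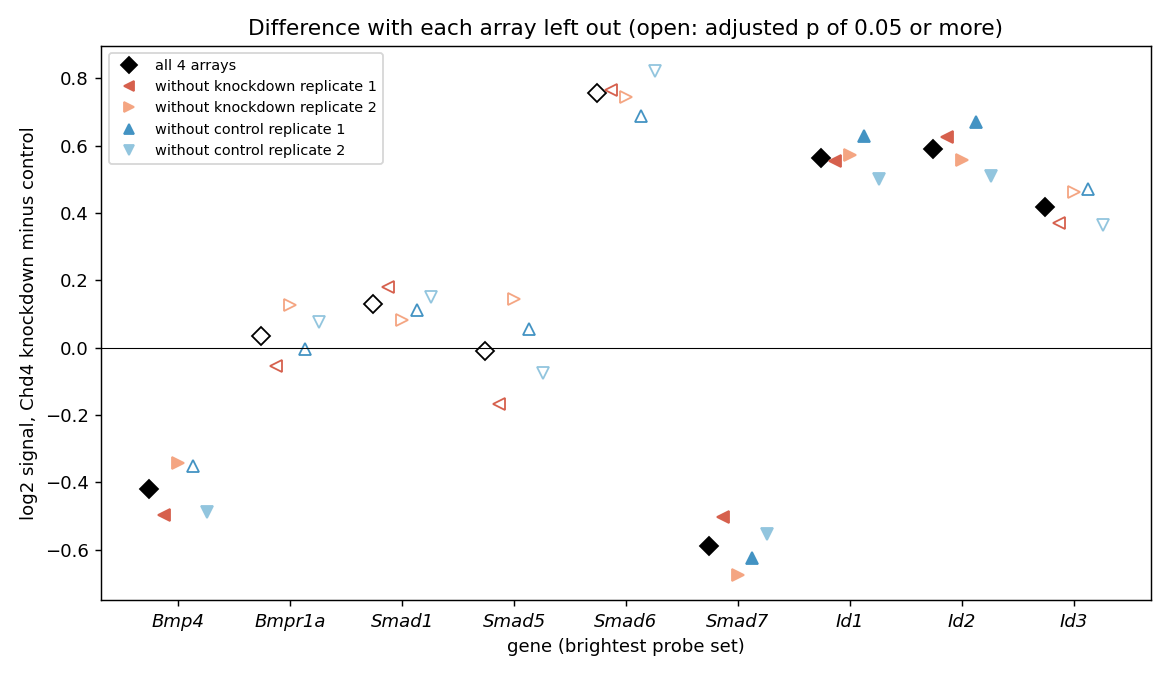
Log2 signal in Chd4 knockdown minus control (vertical axis) at the brightest probe set of each of the 9 genes, with all 4 arrays and with each array left out; filled symbols have an adjusted p under 0.05. Symbols of Id1, Id2 and Smad7 are filled throughout, those of Id3 are open whenever an array is left out, and those of Smad6 are open throughout, although all lie above 0.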

How the data were processed

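The authors deposited linear array intensity, a MAS5 signal for each probe set on each array (MAS5 is named in the submitters' processing notes). Its version, scaling target and detection calls are not given in the sources used here. Trimmed means (2% from each tail) lay between 496.5 and 497.2 on all 4 arrays, so the arrays share 1 scale. Array number limits the precision. Groups came from the sample titles and gene names from the platform annotation. Control probe sets (64) were left out, and probe sets in the top 60% by mean log2 signal (42.4 or more) were tested, 27022 in all. Differences of log2 signal without a pseudocount were tested two-sided with limma 3.58.1 (R 4.3.3), using lmFit, then eBayes with trend=TRUE, which left 2 residual degrees of freedom and 9.24 from the prior. Benjamini-Hochberg adjustment ran over all probe sets tested, at a threshold of 0.05. Errors are SE from this fit. An exact permutation of 2 against 2 arrays could not go below p = 0.333 and was not used.

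Named were Chd4, the 9 members with all their probe sets, 13 further pathway genes fixed by name, up to 4 called genes of each pathway list with the smallest p, and the 2 nearest genes to each called member. Further genes named for single values, such as Tcf12, were chosen after their values were seen. The members, lists and tests were chosen with earlier results of these data known. The median signal of 76.0 served as the floor where a fold is given as "at least". On simulated data with the spread of these arrays, 67, 67 and 66 of 27022 probe sets were changed by 1.5-fold, 2-fold and 4-fold. The fit recovered 23.9%, 49.3% and 86.4% of these, with 5 calls among unchanged ones. Far fewer were changed there than the 3847 called in the real data. The adjustment depends on that number, so these rates do not carry over to the real calls. Other settings tried were a pseudocount, quantile normalization, looser and stricter filters, no intensity trend, averaged probe sets, a floor, the replicate block, a test against 1.2-fold and leaving out each array.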

Additional observations from a re-analysis of the deposited data

How the results depend on the processing

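In this section, counts of members are counts of member probe sets, not of genes. Members called higher and lower (4 and 4) stayed within 1.5 times under several settings. These were a pseudocount of 16, quantile normalization, no filter, the top 40% of probe sets and the replicate block (4 and 4 with the block). Same-numbered arrays did not deviate together (r = -0.0019 across probe sets), and with 2 pairs the numbers do not establish a pairing. The block lowered all calls to 1896 higher and 1739 lower, against 2017 and 1830, and pathway genes lower to 7, against 9, as Acvr1 (-0.639, adjusted p = 0.055) and Smad3 (-0.428, 0.0529) lost their calls.

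Without the intensity trend limma called 0 members in either direction, 0 of all probe sets (2893 higher and 2935 lower at an unadjusted p under 0.05) and 0 pathway genes. The differences themselves did not move, but adjusted p became 0.180 for Bmp4 (-0.419), 0.115 for Id1 (0.564), 0.119 for Id2 (0.591), 0.158 for Id3 (0.417) and 0.122 for Smad7 (-0.589). Tested against 1.2-fold, 2 members were higher and 2 lower, with 519 and 332 of all probe sets and 1 and 3 pathway genes; Bmp4 (-0.419, adjusted p = 0.472), Id3 (0.417, 0.717), Bmpr1a at 1425493_at (-0.478, 0.573) and the brightest Id2 probe set (0.591, 0.0794) no longer passed, while Id2 at 1422537_a_at did (0.977, 0.00838). With signals floored at the median, Bmp4 (-0.419, 0.140), Id1 (0.564, 0.0671), Id2 (0.591, 0.0856), Id3 (0.417, 0.114) and Smad7 (-0.589, 0.0900) did not pass; their signals lie above the floor, so their differences stayed and their p came from the changed spread of other probe sets. Without a filter Id3 (0.417, 0.0585) and Bmpr1a at 1425493_at (-0.478, 0.071) did not pass, leaving 3 members higher and 3 lower, and 5 pathway genes were lower. With the mean over a gene's probe sets, Id2 did not pass (0.553, 0.0575) and 0 pathway genes were higher. The causes of the last changes were not tested.

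With each array left out, members called numbered 3 higher and 2 to 4 lower, all probe sets 1478 to 1751 higher and 1019 to 1833 lower, and pathway genes 2 to 3 higher and 4 to 7 lower. The fewest members lower, 2, came without control replicate 1. Bmp4 ranged from -0.496 to -0.342 and Id3 from 0.364 to 0.470. In the dimmest signals, such as Smad9 or Bmp2, the arrays could not show a difference.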

Other observations

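Dim BMP pathway genes, near or under the array median signal (76.0), lay apart in both directions without being called; those named here were chosen after their values were seen. Of 25 pathway genes below the filter, the knockdown arrays lay above both controls in 6 and below both in 5, and the groups overlapped in 14. With arrays in random order, 33.3% of such comparisons would not overlap. The share over all probe sets below the filter was not counted, so these counts show nothing particular to the pathway. Bmp8b, a ligand gene known from germ cell induction, had 72.8 and 144 in knockdown cells, against 41.2 and 63.4 in control cells (limma adjusted p = 0.141). Chrdl2, which encodes a chordin-like antagonist, had 64.9 and 84.3 in knockdown, against 20.7 and 44.9 in control cells (adjusted p = 0.122). Gdf10 had 39.2 and 42.1 in knockdown, against 4.62 and 5.25 in control cells, and the homeobox gene Dlx5 had 34.2 and 29.0 in knockdown, against 6.44 and 1.44 in control cells. On the other side, Gdf9, an oocyte ligand gene, had 36.2 and 83.1 in knockdown, against 96.4 and 104 in control cells (adjusted p = 0.204). Bmp5 had 21.0 and 7.54 in knockdown, against 28.6 and 57.4 in control cells, Bmp6 had 37.5 and 26.7 in knockdown, against 41.0 and 51.8 in control cells, and the antagonist gene Nbl1 had 10.4 and 6.91 in knockdown, against 53.8 and 23.4 in control cells. Atoh8 had 4.70 and 5.01 in knockdown, against 10.6 and 6.88 in control cells. Gdf10, Dlx5, Bmp5, Bmp6, Nbl1 and Atoh8 lie under the filter, where no test was made and no fold is given.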
